A study of Mus musculus with 12 samples.

Results

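The 10 genes described here encode matrix metalloproteases (Mmp2, Mmp3, Mmp14 and Mmp19), ADAMTS proteases (Adamts1, Adamts2 and Adamts5) and tissue inhibitors of metalloproteases (Timp1, Timp2 and Timp3). They were taken by their gene symbols from a table of 48321 genes, of which 22569 had a read in at least 1 library and 11998 were tested, and each of the 10 was among those tested. The study examined what a soluble form of semaphorin 4B, a membrane protein whose ectodomain the protease ADAM17 cuts off, does to brown adipocytes. Interscapular brown preadipocytes of wild-type (WT) C57BL/6J stock, from a newborn mouse, had been immortalized with the SV40 large T antigen and transduced with a lentivirus that carried either the empty pLEX vector or a Flag-tagged truncated mouse Sema4B (tSema4B), which stands in for the cleaved ectodomain. Both lines therefore share the large T antigen and the viral transduction, and each construct was represented by 1 stably transduced line. Differentiation was started with isobutylmethylxanthine, rosiglitazone, dexamethasone, insulin and triiodothyronine and continued with insulin and triiodothyronine alone up to day 8, and the cells were kept in serum-free medium and then left unstimulated or given 2 μM norepinephrine (NE), the sympathetic transmitter that activates brown fat, for 6 h. The 4 groups are named by line and condition below (for example vector NE), and RNA of each was sequenced in 3 libraries.

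Matrix metalloproteases are zinc-dependent enzymes that cut collagens and other proteins of the extracellular matrix, and the ADAMTS proteases are a related family of secreted enzymes that process procollagens and the large proteoglycans. TIMPs are small secreted proteins that bind the active site of these enzymes, so the relation between protease and inhibitor sets how much matrix is turned over. In adipose tissue the matrix around each fat cell is remodeled as preadipocytes round up and fill with lipid, and preadipocytes and other fibroblastoid cells are a known source of several of these enzymes.

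Values are normalized counts, that is reads per gene divided by a size factor of the library. The 12 libraries held 2000780 to 5409583 reads on genes, and the vector NE libraries were the deepest. Sema4b, the overexpressed gene, lay between 258257 and 316850 normalized counts in the tSema4B unstimulated libraries and between 208760 and 270694 in the tSema4B NE libraries. It was lower but very abundant in the vector libraries (110786 to 124008 unstimulated, 65472 to 81754 after NE), where it took 2.04% to 4.02% of the reads and ranked as gene 2 or 3 by read number. Counts per gene do not separate the cells' own Sema4b from the construct, so whether any of the signal in the vector libraries, which serve as the control, came from the construct was not tested. Ucp1, the thermogenic uncoupling protein that NE raises, had no read in the tSema4B unstimulated libraries, 9.25 to 15.2 normalized counts in the vector unstimulated libraries, 60.8 to 66.5 in the tSema4B NE libraries and 268 to 293 in the vector NE libraries. The series' design text calls the 3 libraries per group technical replicates and names no separate cultures, so the p-values below measure only the spread between these libraries.

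NE moved Timp1 and a set of other members in opposite directions, and the promoters of 3 genes that carry this result are shown for that reason: Timp1, which was higher after NE, and Adamts1 and Timp3, which were lower. Each runs 5′ to 3′ from 250 bases before to 50 bases after the RefSeq start of transcription (GRCm38.p6, with chrX:20869916-20870215 on the plus strand, chr16:85803064-85803363 on the minus strand and chr10:86300162-86300461 on the plus strand). Capitals mark the letters TGACG, the core of the cyclic AMP response element (CRE) bound by CREB-type factors.
Timp1: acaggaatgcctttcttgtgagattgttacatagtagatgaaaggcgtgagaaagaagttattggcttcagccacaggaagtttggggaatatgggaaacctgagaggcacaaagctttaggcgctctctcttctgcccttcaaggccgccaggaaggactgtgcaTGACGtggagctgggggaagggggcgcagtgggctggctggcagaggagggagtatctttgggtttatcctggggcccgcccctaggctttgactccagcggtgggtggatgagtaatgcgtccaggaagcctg
Adamts1: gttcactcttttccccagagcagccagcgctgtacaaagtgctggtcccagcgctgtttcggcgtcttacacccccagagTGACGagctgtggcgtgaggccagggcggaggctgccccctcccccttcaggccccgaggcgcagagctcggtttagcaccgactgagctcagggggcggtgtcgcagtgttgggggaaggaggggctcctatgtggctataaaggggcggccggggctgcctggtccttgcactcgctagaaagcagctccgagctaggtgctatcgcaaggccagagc
Timp3: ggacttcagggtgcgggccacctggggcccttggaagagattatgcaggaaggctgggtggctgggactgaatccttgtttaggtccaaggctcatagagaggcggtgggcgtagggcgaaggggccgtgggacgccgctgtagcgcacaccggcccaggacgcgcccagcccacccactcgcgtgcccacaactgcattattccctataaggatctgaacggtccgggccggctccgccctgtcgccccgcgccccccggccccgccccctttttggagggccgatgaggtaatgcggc
The core began 84 bases before the start in Timp1 and 170 bases before it in Adamts1, and the letters were not in this window of Timp3 on either strand. Promoters were given for 7 of the 10 members, and 2 of these 7 held TGACG on either strand, against 20.8% of 32851 mouse promoters of the same length. The complete CRE, TGACGTCA, which contains the core, was in 0 of the 7 and in 1.79% of all promoters. The AP-1 motif TGANTCA was in 1 of the 7, Mmp3, where it began 46 bases before the start, and in 7.81% of all promoters. These matches describe letters only, and the gene that rose and a gene that fell both held the core.

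Most of the members were higher in tSema4B cells than in vector cells, whether or not NE was given. In unstimulated cells 7 of the 10 passed the test as higher (Mmp2, Mmp14, Adamts1, Adamts2, Adamts5, Timp1 and Timp2) and 0 as lower, where passing means an adjusted p of at most 0.05 in limma's moderated test over all 11998 genes. By the same rule 5.64% of the genes tested were called higher and 7.39% lower. After NE 8 of the 10 were higher (those 7 and Timp3) and 0 lower, against 9.79% of the genes tested called higher and 11.2% lower. When a change of at least 1 on the log2 scale was also asked for, Timp1 was the 1 member left in unstimulated cells (1.11% of genes were called higher and 2.71% lower) and Adamts2 the 1 left after NE (2.03% higher and 3.73% lower). Mmp3 entered the test only through tSema4B libraries, so counts without it are the fairer ones, and these were 7 of 9 and 8 of 9. The median log2 fold change of the 9 was 0.77 in unstimulated cells and 0.58 after NE, beside -0.0025 and -0.010 over all genes tested. Timp1 and Adamts1 are named in the study as higher in tSema4B cells on the strength of these same libraries, so their calls here are not independent evidence.

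Markers of cell state moved along with these members. The summed level of 7 adipocyte markers (Adipoq, Fabp4, Plin1, Cidec, Lpl, Pparg and Pnpla2) was 34254 to 38174 in the vector unstimulated libraries against 5677 to 8257 in the tSema4B unstimulated libraries, and 47971 to 60317 against 9833 to 11323 after NE. All 7 passed as lower in tSema4B cells in both conditions (7.39% and 11.2% of all genes). The study names Fabp4, Lpl, Pnpla2 and, in unstimulated cells, Pparg as lower from these same libraries. The calls of these markers are therefore not independent evidence. The sum of 9 preadipocyte and fibroblast markers went the other way, at 3500 to 3737 against 4945 to 5740 unstimulated and 2731 to 2825 against 4576 to 4852 after NE, with 5 of the 7 tested markers higher in unstimulated cells and 6 of 7 after NE (5.64% and 9.79% of all genes). Pdgfrb, a receptor of mesenchymal progenitors, showed this with a log2 fold change of 0.90 ± 0.12 (SE) and 0.96 ± 0.12 in limma (adjusted p = 7.80e-06 and 3.17e-06). Macrophage markers summed to 24.6 normalized counts at most in any library, with 5 of the 7 at 3 reads or fewer in every library, and endothelial markers to 21.9 at most, with 3 of the 5 at that level. The part of the adipocyte and preadipocyte markers in the differences between the lines was not tested. In bulk RNA, fewer cells of a type and less RNA per cell cannot be told apart.

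**Figure D1:**
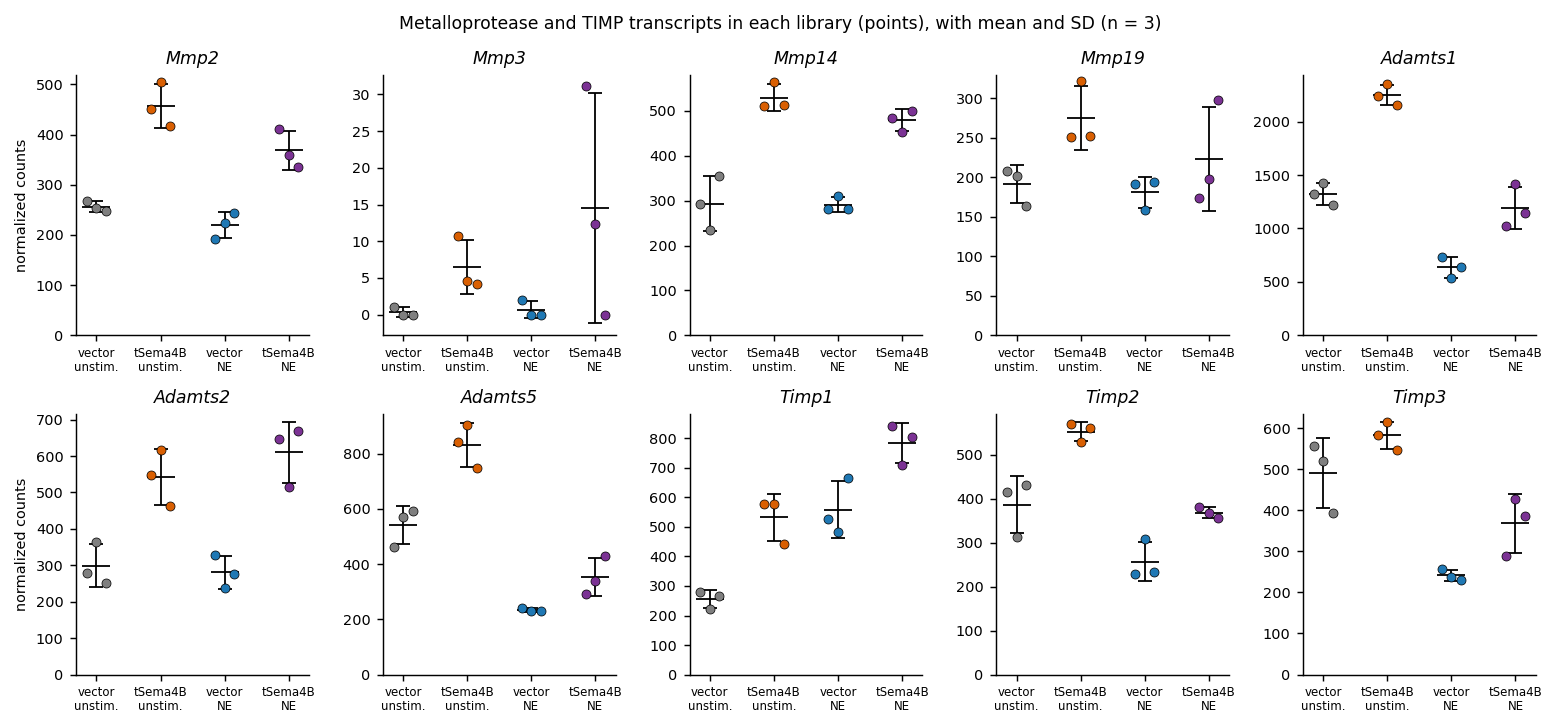
Normalized counts of the 10 members in each of the 12 libraries (points), with the group mean and SD (n = 3 libraries). Adamts1 falls from a mean of 1323 to 636 after NE in vector cells and from 2248 to 1193 in tSema4B cells, whereas Timp1 climbs from 256 to 558 and from 533 to 785.

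Among the matrix metalloproteases, Mmp2 (ENSMUSG00000031740.8, chr8:92827291-92853420, plus strand, 14 merged exons, GRCm38 with GENCODE M21, as for the positions that follow) encodes gelatinase A, which cuts denatured collagen and the type IV collagen of basement membranes. Its normalized counts were 268, 253 and 247 in replicates 1, 2 and 3 of the vector unstimulated group and 451, 504 and 418 in the tSema4B unstimulated group. After NE they were 193, 225 and 244 in vector cells and 411, 359.8 and 336 in tSema4B cells. Every tSema4B library was above every vector library, and in the order vector NE, vector unstimulated, tSema4B NE, tSema4B unstimulated no neighbouring groups overlapped. The group means differed 1.79-fold without stimulation and 1.67-fold after NE, with log2 fold changes of 0.83 ± 0.13 (SE) and 0.74 ± 0.13 (limma, adjusted p = 7.13e-05 and 0.000215).

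Mmp14 (ENSMUSG00000000957.11, chr14:54431612-54445364, plus strand, 11 merged exons) encodes a membrane-anchored protease that cuts fibrillar collagen and activates the MMP2 proenzyme at the cell surface. It had 292, 234 and 355 normalized counts in the vector unstimulated libraries, 510.1, 565 and 513 in the tSema4B unstimulated libraries, 281, 310.0 and 282 in the vector NE libraries and 484, 453 and 501 in the tSema4B NE libraries. The vector groups overlapped each other, and the 6 tSema4B values all lay above the 6 vector values. The log2 fold change between the lines was 0.87 ± 0.13 without stimulation and 0.72 ± 0.13 after NE (SE, limma, adjusted p = 5.52e-05 and 0.000385), close to that of Mmp2 in each condition. Over the 12 libraries the log2 values of Mmp2 and Mmp14 had a Pearson r of 0.89, a description only, since all libraries come from the same 2 lines and NE treatment.

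Mmp19 (ENSMUSG00000025355.7, chr10:128790910-128800824, plus strand, 9 merged exons) encodes a secreted protease of basement membrane proteins. Its values were 209, 202 and 163 in the vector unstimulated group and 250.3, 322 and 252 in the tSema4B unstimulated group, which did not overlap. After NE they were 191, 158 and 194 in vector cells and 174, 198 and 297 in tSema4B cells, where replicate 3 stood above the other libraries and the groups overlapped. The difference did not pass in unstimulated cells, at a log2 fold change of 0.52 ± 0.18 (95% interval 0.15 to 0.89, limma, adjusted p = 0.0592), nor after NE, at 0.27 ± 0.18 (-0.10 to 0.64, adjusted p = 0.316). The call in unstimulated cells hung on the setting, since it passed in 6 of 23 alternative analyses. In the annotation Mmp19 shares 789 exon bases with Tmem198b and 212 with Gm47093, both on the opposite strand, and since the strand setting of the counting is not given in the sources used here its counts may hold reads of these genes. Tmem198b itself had a mean of 64.9 normalized counts.

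Mmp3 (ENSMUSG00000043613.8, chr9:7445822-7455975, plus strand, 10 merged exons) encodes stromelysin-1, a broad protease that also activates other metalloproteases, and it was barely detected. It had 1 read in all in the vector unstimulated group (normalized counts 1.09, 0 and 0) and 3 in the vector NE group (2.02, 0 and 0). The tSema4B unstimulated group had 15 reads (10.7, 4.64 and 4.11), and the tSema4B NE group had 42 (31.1, 12.3 and 0), of which replicate 1 held 29 and replicate 3 held 0. From the reads per group the level in tSema4B cells was 20.5 times that in vector cells without stimulation (95% interval 3.15 to 863) and 24.0 times after NE (7.66 to 121), intervals that cover counting error only. The limma differences of 2.45 ± 1.10 and 2.38 ± 1.10 on the log2 scale did not pass (adjusted p = 0.156 and 0.134). The difference after NE did pass with edgeR (4.28, adjusted p = 0.00663), DESeq2 (4.48, adjusted p = 0.00693) and quantile normalization (2.93, adjusted p = 0.0376). Mmp3 had reached the test only through the tSema4B libraries, where it is higher, so no conclusion is drawn from any of its passes. The value after NE also hung on single libraries, since without tSema4B NE replicate 3 it was 3.84 and passed (adjusted p = 0.00935), whereas without replicate 1 of that group it was 1.34 (adjusted p = 0.476) and without replicate 2 it was 1.97 (adjusted p = 0.313).

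Adamts1 (ENSMUSG00000022893.14, chr16:85793827-85803113, minus strand, 10 merged exons) encodes a protease that cuts the proteoglycans versican and aggrecan. In unstimulated cells it had 1319, 1428 and 1221 normalized counts in the vector libraries and 2241, 2349.7 and 2155 in the tSema4B libraries. After NE it had 734, 533 and 642 in the vector libraries and 1025, 1412 and 1143 in the tSema4B libraries. The tSema4B libraries were above the vector libraries within each condition, while the tSema4B NE group overlapped the vector unstimulated group. The means differed 1.70-fold and 1.88-fold, with log2 fold changes of 0.77 ± 0.11 and 0.91 ± 0.11 (SE, limma, adjusted p = 5.01e-05 and 5.52e-06).

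Adamts2 (ENSMUSG00000036545.8, chr11:50602084-50807573, plus strand, 24 merged exons) encodes the procollagen N-proteinase, which trims the amino-terminal propeptide from fibrillar procollagens. Its normalized counts were 280.2, 365 and 251 in the vector unstimulated libraries and 547, 617 and 463 in the tSema4B unstimulated libraries. After NE they were 328, 238 and 276 and 647, 515 and 669, respectively. Each line kept to its own range across conditions, 238 to 365 in vector cells and 463 to 669 in tSema4B cells. The means differed 1.82-fold without stimulation and 2.17-fold after NE (log2 fold changes 0.87 ± 0.15 and 1.12 ± 0.15, limma, adjusted p = 0.000343 and 1.32e-05).

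Adamts5 (ENSMUSG00000022894.6, chr16:85856173-85901828, minus strand, 8 merged exons), which lies beside Adamts1 on the same chromosome and strand, encodes another protease of aggrecan and versican. The vector unstimulated libraries had 463, 571 and 591 normalized counts and the tSema4B unstimulated libraries 841, 905 and 748. After NE the values were 241, 231 and 228 in vector cells and 292, 339 and 428 in tSema4B cells. In the order vector NE, tSema4B NE, vector unstimulated, tSema4B unstimulated no neighbouring groups overlapped. The line difference was 0.62 ± 0.13 without stimulation and 0.58 ± 0.13 after NE on the log2 scale (limma, adjusted p = 0.00249 and 0.00328).

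Timp1 (ENSMUSG00000001131.11, chrX:20870166-20874735, plus strand, 6 merged exons) encodes an inhibitor of most secreted matrix metalloproteases that acts poorly on membrane-anchored ones such as MMP14. Its normalized counts were 278, 223 and 267 in the vector unstimulated libraries and 579, 579 and 441 in the tSema4B unstimulated libraries. After NE they were 525, 482 and 667 in vector cells and 841, 711 and 803 in tSema4B cells. The vector unstimulated group was the lowest and the tSema4B NE group the highest, each without overlap, and the groups between them, tSema4B unstimulated and vector NE, overlapped. The tSema4B mean was 2.08-fold the vector mean in unstimulated cells and 1.41-fold after NE, with log2 fold changes of 1.05 ± 0.13 and 0.50 ± 0.13 (limma, adjusted p = 7.80e-06 and 0.010). The call after NE was lost without vector NE replicate 2, at 0.40 on the log2 scale (adjusted p = 0.0701).

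Timp2 (ENSMUSG00000017466.9, chr11:118301069-118355740, minus strand, 6 merged exons) encodes an inhibitor that also bridges MMP14 and the MMP2 proenzyme during its activation. It had 415, 312 and 431 normalized counts in the vector unstimulated libraries, where replicate 2 was the lowest, and 569.7, 527 and 559.9 in the tSema4B unstimulated libraries. After NE it had 228, 308 and 234 in vector cells and 381, 366 and 357 in tSema4B cells. The lines did not overlap within either condition, and the tSema4B NE group overlapped the vector unstimulated group. The log2 fold changes between the lines were 0.53 ± 0.13 and 0.53 ± 0.13 (limma, adjusted p = 0.0101 and 0.00679), and without vector unstimulated replicate 2 the former dropped to 0.38 and did not pass (adjusted p = 0.0893).

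Timp3 (ENSMUSG00000020044.13, chr10:86300372-86349506, plus strand, 8 merged exons) encodes the TIMP that binds to the matrix and also inhibits ADAM17 and ADAMTS proteases. Its normalized counts were 557, 519.6 and 394 in the vector unstimulated libraries and 584, 614 and 548 in the tSema4B unstimulated libraries, which overlapped. After NE the values were 257, 238 and 231 in vector cells and 289.5, 428 and 386 in tSema4B cells, without overlap. The line difference was 0.26 ± 0.14 on the log2 scale in unstimulated cells (95% interval -0.034 to 0.56, limma, adjusted p = 0.258) and 0.58 ± 0.14 after NE (0.29 to 0.88, adjusted p = 0.00511). The difference between these line effects is the interaction given further on, and it did not pass. Timp3 shares 1733 exon bases with Syn3 on the opposite strand, a gene with a mean of 0.31 normalized counts.

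NE lowered Adamts1, Adamts5, Timp2 and Timp3 and raised Timp1, in vector cells and in tSema4B cells alike in direction. In each line 1 of the 10 members passed as higher and 4 as lower, and the counts over the 9 without Mmp3 were the same. In vector cells 6.82% of the genes tested were called higher and 4.78% lower, and in tSema4B cells 3.68% and 2.58%. With a change of at least 1 on the log2 scale, vector cells kept Timp1 as higher (1.66% of genes) and Adamts1, Adamts5 and Timp3 as lower (0.975% of genes), Timp3 at -1.002 standing right at that limit. In tSema4B cells Adamts5 alone was left as lower (0.758% of genes), and no member as higher (1.31% of genes). The median log2 fold change of the 9 was -0.22 in vector cells and -0.33 in tSema4B cells, beside -0.019 and -0.0048 over all genes tested.

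Adamts5 fell the most of the members in both lines, to a mean 2.32-fold lower in vector cells and 2.36-fold lower in tSema4B cells. Its log2 fold changes were -1.20 ± 0.13 and -1.25 ± 0.13 (SE, limma, adjusted p = 2.42e-06 and 1.86e-06). Adamts1 fell 2.08-fold and 1.88-fold, with log2 fold changes of -1.06 ± 0.11 and -0.93 ± 0.11 (adjusted p = 1.68e-06 and 1.43e-05). For both proteases every NE library was below every unstimulated library of the same line.

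The inhibitors split. Timp3 fell 2.03-fold in vector cells and 1.58-fold in tSema4B cells, with log2 fold changes of -1.002 ± 0.14 and -0.68 ± 0.14 (limma, adjusted p = 5.67e-05 and 0.00439). Timp2 fell 1.50-fold and 1.50-fold, with log2 fold changes of -0.59 ± 0.13 and -0.58 ± 0.13 (adjusted p = 0.00603 and 0.00925). Timp1 rose 2.18-fold in vector cells and 1.47-fold in tSema4B cells, with log2 fold changes of 1.11 ± 0.13 and 0.57 ± 0.13 (adjusted p = 6.73e-06 and 0.012). All 3 TIMP genes had NE and unstimulated groups that did not overlap in either line. The rise of Timp1 in tSema4B cells lost its call without tSema4B unstimulated replicate 3, its lowest library there, at a log2 fold change of 0.44 (adjusted p = 0.0754).

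The other proteases, Mmp2, Mmp3, Mmp14, Mmp19 and Adamts2, did not pass in either line. Mmp14 changed by 0.0063 ± 0.13 in vector cells (95% interval -0.26 to 0.28, limma, adjusted p = 0.986) and -0.14 ± 0.13 in tSema4B cells (-0.41 to 0.13, adjusted p = 0.596). Adamts2 gave -0.083 ± 0.15 (-0.40 to 0.23, adjusted p = 0.807) and 0.17 ± 0.15 (-0.14 to 0.48, adjusted p = 0.59). Mmp2 was lower after NE in both lines without overlap of the libraries, yet its log2 fold changes of -0.22 ± 0.13 (-0.49 to 0.042) and -0.31 ± 0.13 (-0.58 to -0.047) did not pass (adjusted p = 0.305 and 0.162). Without vector NE replicate 1 the change of Mmp2 in vector cells was -0.13. Mmp19 gave -0.077 ± 0.18 and -0.33 ± 0.18 (adjusted p = 0.855 and 0.318). For Mmp3 the reads per group gave a ratio of NE to unstimulated of 1.93 in vector cells (95% interval 0.155 to 101) and 2.26 in tSema4B cells (1.23 to 4.39), counting error only, and its limma changes did not pass (adjusted p = 0.95 and 0.973). The direction in tSema4B cells turned without tSema4B NE replicate 1, which held 29 of the 42 reads (log2 fold change -0.93), and without replicate 2 of that group (-0.30). For 3 libraries against 3 the exact permutation test of a single gene cannot go below p = 0.1, and it gave that value wherever groups did not overlap.

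Markers of several cell types moved with NE too. The adipocyte sum was higher after NE without overlap in both lines, with the ranges given above. In vector cells Fabp4 made up most of it, at 22910 to 24643 normalized counts before and 34881 to 46022 after NE. Of its 7 markers 1 passed as higher and 2 as lower in vector cells (6.82% and 4.78% of all genes) and 3 as higher and 0 as lower in tSema4B cells (3.68% and 2.58%). Fabp4, a fatty acid binding protein, passed as higher in both (0.76 ± 0.13 and 0.47 ± 0.13, limma, adjusted p = 0.000506 and 0.0345). Those lower in vector cells were Plin1 (-0.97 ± 0.29, adjusted p = 0.0300) and Pparg (-0.71 ± 0.19, adjusted p = 0.0146). In tSema4B cells Cidec (1.16 ± 0.21, adjusted p = 0.00116) and Lpl (1.03 ± 0.080, adjusted p = 2.10e-08) were also higher. The brown adipocyte list (Ucp1, Cidea, Dio2, Ppargc1a, Prdm16, Ebf2 and Elovl3) summed to 214 to 268 before and 489.7 to 519 after NE in vector cells and to 52.4 to 76.7 and 126 to 151 in tSema4B cells. Most of the rise of these sums was Ucp1, which went from 9.25 to 15.2 normalized counts to 268 to 293 in vector cells. In tSema4B cells it went from 0 to 60.8 to 66.5. Of the 6 tested, Ucp1 entered the test only through the NE libraries, so its change is given by these levels. Cidea, Ppargc1a, Prdm16 and Ebf2 did not pass in either line. Elovl3 passed as higher in tSema4B cells (2.03 ± 0.42, limma, adjusted p = 0.00376, where 3.68% of all genes were higher) and not in vector cells (1.06 ± 0.42, adjusted p = 0.108). Of the 7 macrophage markers Csf1r was the 1 tested, and it entered the test only through the NE libraries, so its change is given by its levels, 0 to 2.74 normalized counts in the unstimulated and 9.65 to 19.8 in the NE libraries (22 reads at most), while Ptprc and Adgre1, which define these cells, had no read. Of the 7 preadipocyte and fibroblast markers tested, 3 passed as lower and 1 as higher in each line (4.78% and 6.82% of all genes in vector cells, 2.58% and 3.68% in tSema4B cells). Dlk1, a preadipocyte surface protein, was among the lower ones, at -0.55 ± 0.077 in vector cells and -0.37 ± 0.077 in tSema4B cells (SE, limma, adjusted p = 4.81e-05 and 0.00435). The summed level of the preadipocyte and fibroblast list after NE was 2731 to 2825 in vector cells, below the 3500 to 3737 of unstimulated cells, and 4576 to 4852 in tSema4B cells, below the 4945 to 5740 of unstimulated cells. Mural and smooth muscle markers summed to 769 to 1166 before and 593 to 794 after NE in vector cells, and to 1091 to 1193 and 498 to 819 in tSema4B cells. Of the 3 tested, Acta2 passed as lower in both lines (-0.55 ± 0.17 and -0.75 ± 0.17, limma, adjusted p = 0.0362 and 0.00785). Des and Rgs5 did not pass (4.78% and 2.58% of all genes were lower). The part of these markers in the NE response of the members was not tested. Depth differed as well, with 2841941 to 3682634 reads in the vector unstimulated and 4739777 to 5409583 in the vector NE libraries.

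**Figure D2:**
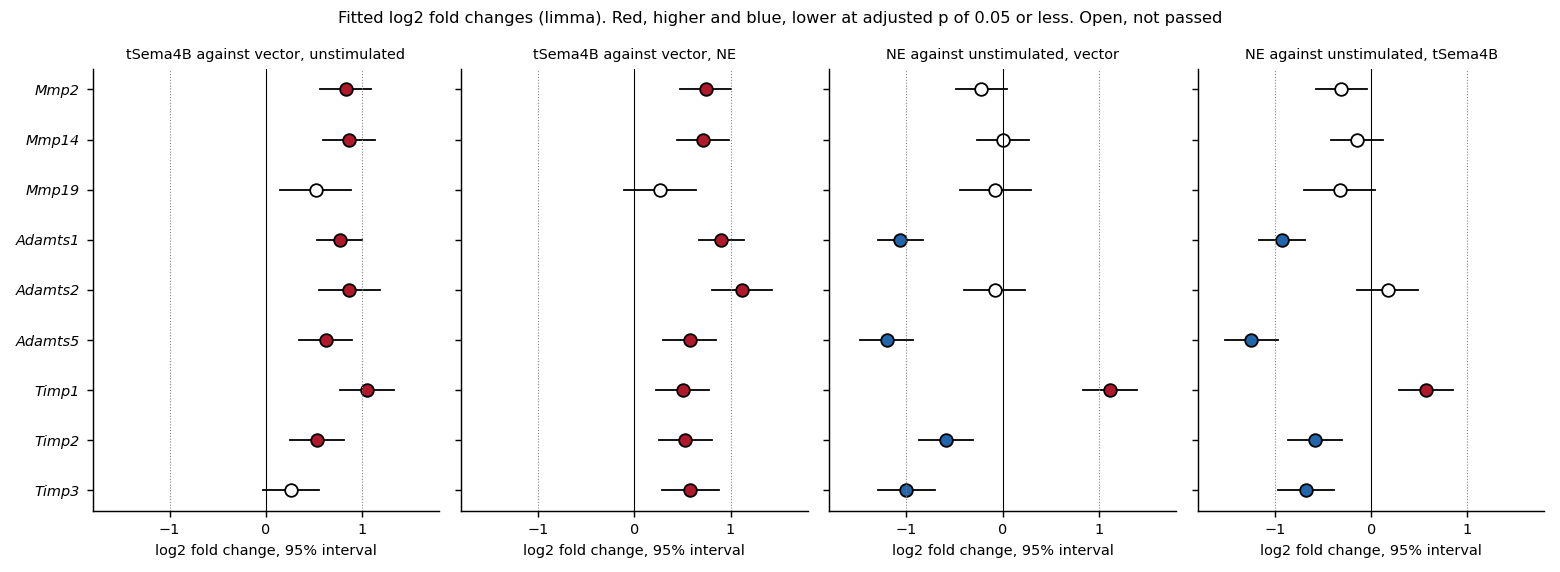
Log2 fold changes from limma with 95% intervals for 9 members (Mmp3 left out, since its intervals run beyond the axis) in 4 comparisons, filled where the adjusted p is 0.05 or less. In the comparisons of tSema4B with vector 7 and 8 members are higher, and in the NE comparisons Timp1 is the 1 member that is higher while Adamts1, Adamts5, Timp2 and Timp3 are lower.

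Whether the NE response differed between the lines, which is the same question as whether the tSema4B difference changed with NE, was tested as an interaction. None of the 10 members passed in limma, edgeR or DESeq2. At an unadjusted p under 0.05 there was 1 member by each of the 3 tools, Timp1, where 10.2% of all genes tested were under that value in limma. Of all genes, 0.025% were called higher and 0% lower for the interaction in limma, and of the 11998 genes 3 were called in either direction by limma, 4 by edgeR and 87 by DESeq2. By limma over all genes Timp1 had an interaction of -0.55 ± 0.19 on the log2 scale (95% interval -0.94 to -0.15, unadjusted p = 0.00869, adjusted p = 0.301), and adjusted p was 0.237 with edgeR and 0.121 with DESeq2. For the others the limma estimates excluding Mmp3 ran from -0.25 for Mmp19 to 0.32 for Timp3, each with a 95% interval that included 0 (for Timp3, -0.093 to 0.74).

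**Figure D3:**
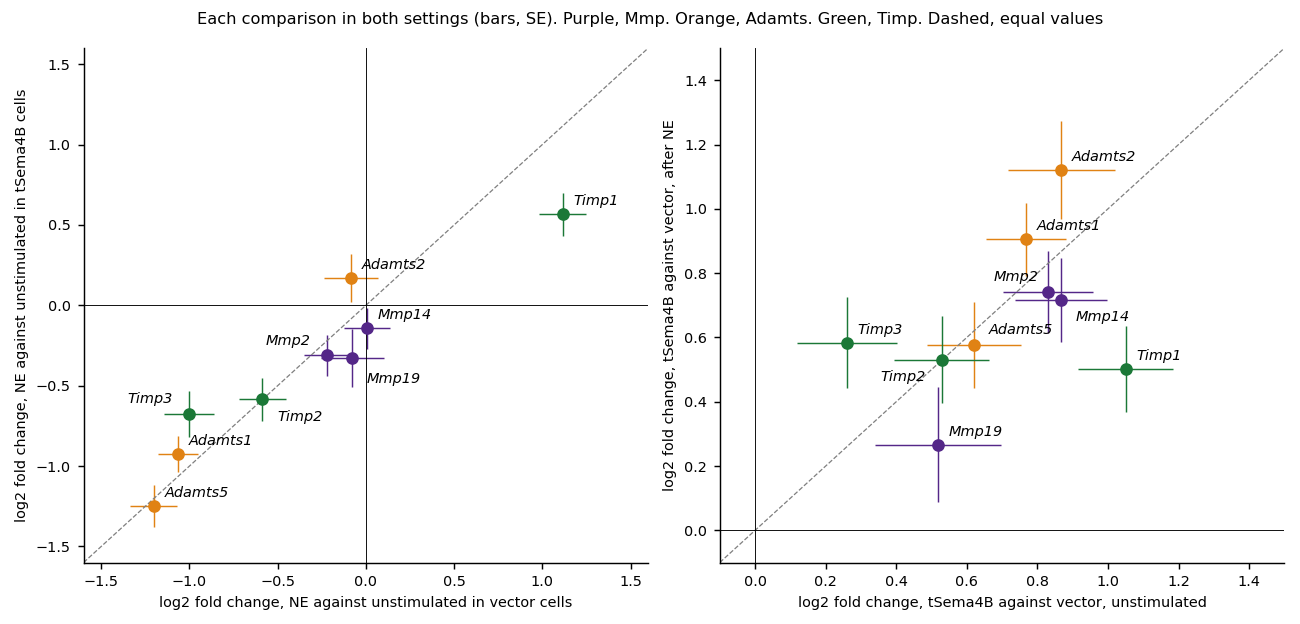
Log2 fold changes (limma, bars give the SE) of 9 members after NE in vector cells against tSema4B cells (left), and for tSema4B against vector without stimulation against after NE (right). On the left Timp1 stands alone in the upper right at 1.11 and 0.57, and on the right all 9 genes lie above 0 on both axes.

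To compare levels between genes, normalized counts were divided by the length of the merged exons in kb. By this measure Timp1 had the highest mean of the members in each group and Adamts1 the next, but in vector unstimulated cells their libraries overlapped (250.9 to 313 for Timp1 and 230.3 to 269 for Adamts1). Timp1 had 288 ± 32.9 normalized counts per kb in vector unstimulated cells and 884 ± 75.2 in tSema4B NE cells, the groups with its lowest and highest means. Adamts1 had 424 ± 18.4 per kb in tSema4B unstimulated cells and 120.0 ± 18.9 in vector NE cells. Mmp3 came last in every group, at 8.03 ± 8.70 per kb at most.

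The mix of TIMP transcripts moved with these changes. Of the summed Timp1, Timp2 and Timp3 level per kb, Timp1 made up 64.4 ± 0.929% in vector unstimulated cells (SD, n = 3 libraries) and 73.6 ± 2.95% in tSema4B unstimulated cells. After NE its share was 86.5 ± 3.04% in vector cells and 86.3 ± 1.60% in tSema4B cells, so the lines overlapped after NE and were apart before it. Timp3 made up 13.6 ± 2.84% and 8.83 ± 0.637% before NE, and 4.17 ± 0.681% and 4.46 ± 1.13% after it. The TIMP sum over the sum of the 4 Mmp genes was 2.30 to 2.59 in vector and 2.49 to 2.94 in tSema4B unstimulated libraries, which overlapped, and 3.99 to 4.81 and 3.86 to 4.01 in the NE libraries, above both. This difference with NE rests on the division by exon length, which gives the short Timp1 transcript more weight. For sums of normalized counts without it, an alternative chosen after seeing the data, the ratio was 1.43 to 1.62 before and 1.48 to 1.57 after NE in vector cells and 1.23 to 1.42 and 1.36 to 1.47 in tSema4B cells, so the NE and unstimulated libraries overlapped in each line. Between the lines the division matters as well. Without it the libraries of the lines stood apart both before and after NE, with tSema4B below vector, whereas with it they overlapped in each condition. The Timp1 share without the division was lower in level but still apart, at 22.6 ± 1.68% before and 52.6 ± 6.02% after NE in vector cells and 31.8 ± 2.92% and 51.6 ± 4.22% in tSema4B cells. These shares are sums over members chosen with results known and were given no test, and as transcript levels they say nothing of protein or inhibition.

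**Figure D4:**
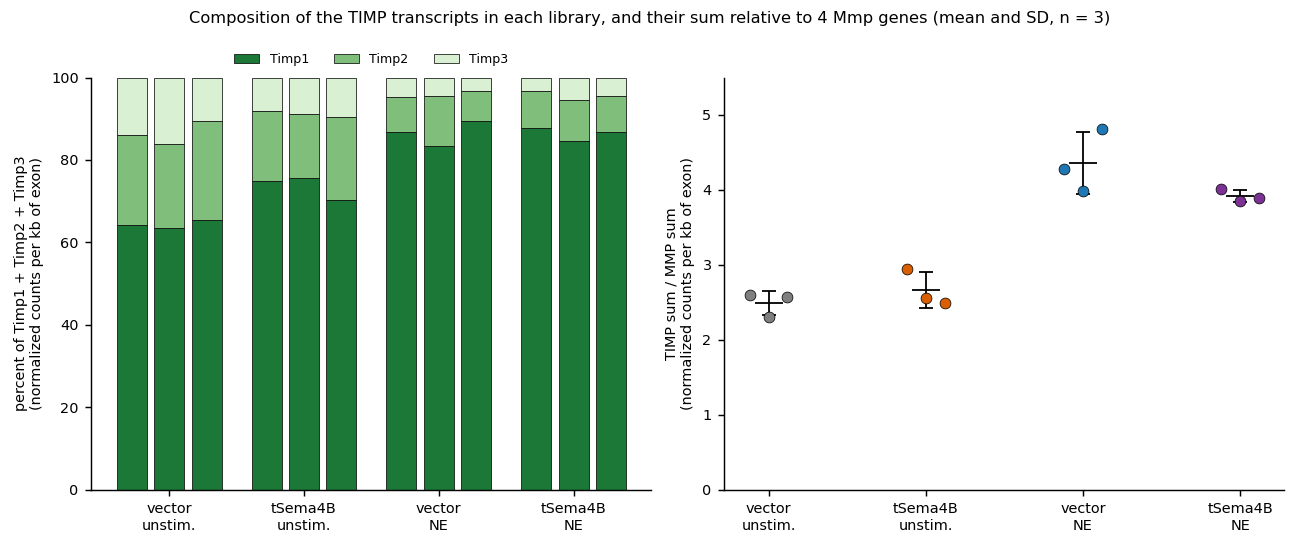
Left, the percent of the summed Timp1, Timp2 and Timp3 level (normalized counts per kb of exon) that each gene makes up in the 12 libraries. Right, the TIMP sum over the sum of Mmp2, Mmp3, Mmp14 and Mmp19 in each library with mean and SD (n = 3), 2.30 to 2.94 in unstimulated and 3.86 to 4.81 in NE libraries, a gap that depends on the division by exon length.

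Adamts1 made up most of the summed ADAMTS level per kb in every group. It held 75.2 ± 1.86% in vector unstimulated cells and 69.8 ± 1.38% in vector NE cells, and 75.9 ± 1.36% and 69.4 ± 5.27% in tSema4B cells. The share of Adamts2 went from 9.58 ± 1.13% to 17.5 ± 0.403% after NE in vector cells and from 10.4 ± 0.862% to 20.5 ± 4.32% in tSema4B cells, without overlap of the libraries within either line.

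Across the 12 libraries the log2 values of the members were mostly similar in pattern, with a median Pearson r of 0.61 over the 45 pairs. The highest was 0.94, between Adamts1 and Timp3, and the lowest -0.36, between Timp1 and Timp3. The 4 pairs with a negative r all contained Timp1, with Adamts1, Adamts5, Timp2 and Timp3 as partners. Among all genes tested, those whose log2 values followed a member most closely were named as the top by Pearson r. For Timp1 they were Il1rl1 (r = 0.96), S1pr1 (0.96) and Tnc (0.95), for Adamts1 Emilin1 (0.98), Gsn (0.97) and Dtna (0.97), and for Timp3 Rspo3 (0.95), Svil (0.94) and Mapre2 (0.93). Mmp14 was followed by C1qtnf6 (0.97), Rarb (0.97) and Sparc (0.97), and Mmp2 by Adcy3 (0.97), Fgfr1 (0.97) and Sfr1 (0.97). For Adamts2 the top genes were Myo7a (0.96), Hdlbp (0.96) and Nrp1 (0.96), for Adamts5 Sqrdl (0.97), Tns3 (0.96) and Adh7 (0.96), and for Timp2 Cd81 (0.96), Dlk1 (0.96) and Enpp5 (0.96). Mmp19 had looser company, with Pi4kb at 0.93, and for Mmp3 the ranking rests on a few reads. With 4 groups of 3 libraries such correlations mainly follow the group means, and they carry no test.

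The rest of the MMP family was mostly silent or low. Of its 23 genes 9 were tested and 10 had 3 reads or fewer in every library, among them Mmp1a, Mmp7, Mmp8, Mmp10, Mmp12 and Mmp20, while Mmp9 and Mmp13 reached 4 reads at most. The 9 include the 4 members described above, which leaves 5 others (Mmp2 and Mmp14 are the members already counted as higher in tSema4B cells). Of these 5, 1 was higher and 1 lower in tSema4B cells without stimulation, where 5.64% and 7.39% of all genes were, and 1 was higher and 0 lower after NE (9.79% and 11.2% of all genes). NE lowered 2 of the 5 in vector cells and 0 in tSema4B cells (4.78% and 2.58% of all genes) and raised 0 in either line. Mmp11, which encodes stromelysin-3, was the gene that was lower, at 209 ± 35.5 normalized counts in tSema4B unstimulated cells against 480.3 ± 55.7 in vector unstimulated cells (SD, n = 3 libraries), a log2 fold change of -1.21 ± 0.15 (SE, limma, adjusted p = 7.56e-06). After NE its difference of -0.25 ± 0.15 did not pass (adjusted p = 0.275), and neither did its interaction of 0.96 ± 0.22 (adjusted p = 0.113). Mmp23 was higher in tSema4B cells in both conditions (0.76 ± 0.20 and 0.92 ± 0.20, adjusted p = 0.0145 and 0.00246), at 45.2 to 144 normalized counts.

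Of the 19 ADAMTS genes 11 were tested, the members Adamts1, Adamts2 and Adamts5 and 8 others. Of these 8, 2 were higher and 0 lower in tSema4B cells without NE (5.64% of all genes higher and 7.39% lower), and the numbers were the same with it (9.79% and 11.2%). The genes were Adamts15 and Adamts4 without NE, and Adamts15 and Adamts10 after NE. Adamts4 did not pass after NE (0.20 ± 0.16, limma, adjusted p = 0.422), nor did Adamts10 without it (0.48 ± 0.21, adjusted p = 0.148). NE raised 2 and lowered 1 of the 8 in vector cells (6.82% and 4.78% of all genes) and raised 0 and lowered 0 in tSema4B cells (3.68% and 2.58%). Adamts15, another proteoglycan-cutting member, was higher in tSema4B cells, at 97.7 to 122 normalized counts against 19.5 to 53.0 without stimulation and 61.1 to 75.3 against 16.4 to 29.6 after NE, with log2 fold changes of 1.71 ± 0.32 and 1.53 ± 0.32 (limma, adjusted p = 0.000637 and 0.00141). Adamts9 rose with NE in vector cells, from 10.9 to 21.0 to 40.3 to 67.4 normalized counts (1.65 ± 0.49, adjusted p = 0.0294), and its change in tSema4B cells did not pass (1.38 ± 0.49, adjusted p = 0.10). Adamts4, an aggrecan-cutting relative of Adamts5, also rose with NE in vector cells (0.76 ± 0.16, adjusted p = 0.00376), where Adamts1 and Adamts5 fell. In tSema4B cells the change of Adamts4 did not pass (0.35 ± 0.16, adjusted p = 0.236).

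Among 7 inhibitors 5 were tested. Timp4 was not, with 9 reads at most in a library, and A2m had no read. Reck, a membrane-anchored inhibitor of metalloproteases, was higher in tSema4B cells after NE (0.66 ± 0.22, limma, adjusted p = 0.0359) and did not pass in the other comparisons. Of 7 genes for ADAMTS-like proteins, which resemble ADAMTS proteases but lack the catalytic part, 4 were tested. Of these 4, 1 was higher and 0 lower in tSema4B unstimulated cells (5.64% and 7.39% of all genes). This was Adamtsl3, on 2 to 22 reads a library (1.93 ± 0.55, limma, adjusted p = 0.0223), and after NE its difference of 0.26 ± 0.55 did not pass (adjusted p = 0.784). After NE 2 of the 4 were higher in tSema4B cells and 0 lower (9.79% and 11.2% of all genes). These were Adamtsl5 (1.02 ± 0.21, adjusted p = 0.00125) and Adamtsl1 (1.06 ± 0.38, adjusted p = 0.0479). Without stimulation Adamtsl5 gave 0.41 ± 0.21 (adjusted p = 0.217) and Adamtsl1 1.12 ± 0.38 (adjusted p = 0.0525), and neither passed. With NE Adamtsl5 was the 1 gene of this list that passed, as lower in vector cells (-0.65 ± 0.21, adjusted p = 0.0477, where 4.78% of all genes were lower and 6.82% higher). In tSema4B cells it gave -0.041 ± 0.21 (adjusted p = 0.947) and 0 of the 4 passed (3.68% of all genes were higher and 2.58% lower).

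Of 12 genes for the activation and clearance of these enzymes 10 were tested, and 5 were higher and 0 lower in tSema4B unstimulated cells (5.64% and 7.39% of all genes), while 3 were higher and 2 lower after NE (9.79% and 11.2%). Serpine2, an inhibitor of serine proteases, was higher in tSema4B cells in both conditions (1.12 ± 0.15 and 1.03 ± 0.15, limma, adjusted p = 1.73e-05 and 4.33e-05). Plat, the tissue plasminogen activator, was higher in tSema4B cells (0.70 ± 0.14 and 0.49 ± 0.14, adjusted p = 0.00188 and 0.0173) and lower after NE (-0.73 ± 0.14 in vector and -0.94 ± 0.14 in tSema4B cells, adjusted p = 0.00179 and 0.000226), the directions that Adamts1 and Adamts5 also had. With NE 1 of the 10 passed as higher and 1 as lower in vector cells (6.82% and 4.78% of all genes) and 2 as higher and 1 as lower in tSema4B cells (3.68% and 2.58%), Bsg, an inducer of metalloproteases, being higher in both (0.25 ± 0.067 and 0.22 ± 0.067, adjusted p = 0.0158 and 0.0496). Lrp1, an endocytic receptor that clears several of these proteases and TIMP complexes, was higher in tSema4B cells by 0.47 without stimulation and 0.68 after NE (adjusted p = 0.00308 and 5.22e-05), and it rose with NE in tSema4B cells (0.41 ± 0.10, adjusted p = 0.0176). Plaur, the urokinase receptor, was higher in tSema4B unstimulated cells (1.53 ± 0.46, adjusted p = 0.0281) on 6 to 35 reads a library. Pcsk6, a proprotein convertase, is 1 of the 2 counted as lower after NE, but it entered the test only through vector libraries, at 19.5 to 21.9 normalized counts in vector NE and 2.14 to 6.63 in tSema4B NE libraries. The other is Bsg, lower in tSema4B than in vector cells after NE (-0.20 ± 0.067, limma, adjusted p = 0.0426).

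The tested substrates of the ADAMTS members were higher in tSema4B cells. The study reports collagen genes as higher in tSema4B cells from these same libraries, so the collagen calls are not independent evidence. Of 8 such genes 5 were tested, and all 5 (Col1a1, Col1a2, Col3a1, Col5a1 and Vcan) passed as higher in both conditions, where 5.64% and 9.79% of all genes did. Col1a1 was at 11724 ± 913 normalized counts in tSema4B unstimulated against 5737 ± 124 in vector unstimulated libraries, and Col3a1 at 14462 ± 1061 against 6905 ± 402, log2 fold changes of 1.03 ± 0.069 and 1.07 ± 0.074 (SE, limma, adjusted p = 5.68e-10 and 9.45e-10). Both collagens are substrates of the Adamts2 product, whose line difference was 0.87. Vcan, the versican gene, was 0.41 ± 0.11 and 0.59 ± 0.11 higher in tSema4B cells (adjusted p = 0.0136 and 0.000493). With NE the collagen genes that passed were lower. Col1a1 and Col1a2 fell in vector cells (-0.30 ± 0.069 and -0.43 ± 0.068, adjusted p = 0.00597 and 0.000192), so that 0 of the 5 passed as higher and 2 as lower (6.82% and 4.78% of all genes). In tSema4B cells Col1a1 (-0.27 ± 0.069, adjusted p = 0.0215), Col1a2 (-0.29 ± 0.068, adjusted p = 0.00925) and Col5a1 (-0.61 ± 0.15, adjusted p = 0.015) fell, and 1 of the 5 passed as higher and 3 as lower (3.68% and 2.58% of all genes). The gene that rose was Vcan in tSema4B cells (0.50 ± 0.11, adjusted p = 0.00625), and in vector cells its change of 0.32 ± 0.11 did not pass (adjusted p = 0.0603).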

How the data were processed

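RNAseq was measured in 12 libraries, 3 in each of 4 groups, assigned from their labels, with 2000780 to 5409583 reads on genes. Full-length cDNA (SMART-Seq2, Nextera XT) was sequenced single-end. The authors removed non-murine reads (FastQ Screen), mapped the rest to mm10 (GRCm38.p4) by STAR 2.7.9a, took gene counts from htseq-count and scaled each library by a DESeq2 size factor, so the deposited signal is a normalized count per gene. The annotation, the strand setting and the handling of multiply mapped reads are not given in the sources used here. In every library 100% of the values were whole multiples of 1 read (tolerance 0.01), which gave whole reads for edgeR and DESeq2.

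Genes that reached 10 normalized counts in 3 or more libraries were tested with limma 3.58.1 (R 4.3.3, trended eBayes) on log2(normalized count + 1), with 4 group means over all 12 libraries, two-sided, and Benjamini-Hochberg adjustment over all 11998 genes. Fold changes on this scale understate those of low genes. The steps were tested on simulated data. Alternatives were other pseudocounts, filters and scalings, edgeR 4.0.16, DESeq2 1.42.0, the 6 libraries compared alone, a replicate block, and each library left out. Replicates of a group differed by more than counting noise (chi-square per degree of freedom 3.65 to 6.12 over 12 pairs). Positions and exon lengths came from GENCODE M21, and promoters from RefSeq (GRCm38.p6).

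The named genes were the 10 members, genes of the pathway lists (those with the largest changes among those that passed, and others given with their values after these were seen), and, for each member other than Mmp19 and Mmp3, the 3 genes with the highest Pearson r. For Mmp19 the top gene alone was named, and for Mmp3 none. Members and lists were chosen with earlier results of these data known. Lists covered the MMP and ADAMTS families, inhibitors, ADAMTS-like proteins, activation and clearance, ADAMTS substrates, and markers of adipocytes, brown adipocytes, preadipocytes, macrophages, endothelium and mural cells. Of 7 brown adipocyte markers 6 were tested. In each condition 4 of them (Ucp1, Cidea, Ebf2 and Elovl3) were lower in tSema4B cells, where 7.39% (unstimulated) and 11.2% (NE) of all genes were. The study names Ucp1 as lower from these same libraries.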

Additional observations from a re-analysis of the deposited data

How the results depend on the processing

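Of the 25 member changes that passed, none changed sign under 23 alternatives, and 3 lost their call, each without 1 library: Timp1 after NE without vector NE replicate 2 (0.40), Timp1 with NE in tSema4B cells without tSema4B unstimulated replicate 3 (0.44) and Timp2 in unstimulated cells without vector unstimulated replicate 2 (0.38). The number of members higher with NE in tSema4B cells ran from 0 to 1 when libraries were left out. Of the 25 that did not pass, 2 gained a call, Mmp19 in unstimulated cells (adjusted p = 0.0261 to 0.217 in limma, edgeR and DESeq2) and Mmp3 after NE with quantile normalization (2.93), edgeR (4.28), DESeq2 (4.48) and without tSema4B NE replicate 3 (3.84). Mmp3 had entered the test only through tSema4B libraries, so its gained calls decide nothing. Its call without replicate 3 also dropped the library of that group that held 0 reads. Changes of sign touched 9 that did not pass. With NE in vector cells Mmp14 gave -0.038 scaled to equal totals, -0.0099 scaled to nuclear genes, -0.029 with quantile normalization, -0.0015 with edgeR and -0.0048 with DESeq2, and Mmp3 -0.044 with quantile normalization. With a pseudocount of 0.5 Mmp3 gave -0.13 with NE in tSema4B cells. For the interaction Mmp3 gave 0.33 with a pseudocount of 10, 0.29 with quantile normalization, 0.38 with edgeR and 0.28 with DESeq2. Adamts5 gave 0.025 at equal totals, and Timp2 -0.0034 with a pseudocount of 10, -0.033 with quantile normalization, -0.0035 with edgeR and -0.0054 with DESeq2. With libraries left out, the NE change in vector cells ran from -0.35 to 0.53 for Mmp3, -0.15 to 0.15 for Mmp14, -0.19 to 0.016 for Mmp19 and -0.20 to 0.070 for Adamts2. In tSema4B cells that of Mmp3 ran from -0.93 to 1.57. The interaction ran from -1.11 to 1.39 for Mmp3, -0.30 to 0.0036 for Mmp14, -0.19 to 0.084 for Adamts5 and -0.085 to 0.15 for Timp2. The cause of these shifts was not tested. Equal replicate numbers did not mark pairs (r of -0.047 to 0.028 over 18 pairs), and with the replicate block the counts of members higher stayed 7 without and 8 with NE, and NE still raised 1 and lowered 4 in each line. Depth limits Mmp3, with 61 reads in all 12 libraries.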
